A study of Mus musculus with 12 samples.

Results

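Genes that are used to read the maturity of pancreatic β-cells were followed between 4 and 8 weeks of age in islet cells of female NOD mice, a strain (NOD/ShiLtJ) that develops autoimmune diabetes. The 7 members were found in the deposited table by matching its Ensembl gene identifiers to the symbols Ucn3, Slc2a2, Syt4, Cd81, Rbp4, Npy and Dlk1. They are 7 of 52962 identifiers in the table, and all 7 were among the 15598 genes that passed the filter on low counts (more than 1 CPM in at least 3 of the 12 samples, CPM being the counts-per-million scale of library size). The islets had been dispersed, and CD45-negative cells had been sorted by forward scatter and autofluorescence into a β-cell and a non-β-cell fraction. This gave 4 groups, the 2 fractions at each of the 2 ages, with 3 samples in each, and the methods of the study describe each sample as a pool of mice. All 12 samples carried the genotype NOD, and no transgene, treatment or other strain entered the comparisons. Both ages lie after weaning, and no sample from before weaning was analysed here. Age and the stage of islet autoimmunity change together in NOD mice, and they cannot be told apart in this design.

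β-cells of newborn mice make insulin but release it poorly in response to glucose. Around weaning they gain a raised glucose threshold and a strong secretory response, while transcripts of fetal and neonatal β-cells decline. Ucn3 and Slc2a2 are used as markers of mature rodent β-cells, and Syt4 as a vesicle protein gained during maturation. Npy, Rbp4, Cd81 and Dlk1 have been linked to immature, dedifferentiating or heterogeneous β-cells, so the set holds genes for which maturation would be read in opposite directions. Levels below are CPM after scaling of library sizes by the trimmed mean of M-values, given as mean ± SD with n = 3. Changes are log2 differences from a limma-voom model of all 4 groups, with standard errors (SE), and adjusted p is the Benjamini-Hochberg value over all 15598 genes, with 0.05 as the threshold.

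The fractions carried the hormone transcripts of their labels. Transcripts of Ins1 and Ins2 made up 3.30% to 8.97% of all counts in β-cell samples and 0.0565% to 0.238% in non-β-cell samples, while Gcg (glucagon) made up 0.139% to 0.875% and 10.5% to 12.7%. Samples held 13755106 to 27040652 counts. The third β-cell sample at 4 weeks differed from the other samples of its group by a chi-square per degree of freedom of 93 and 101 over genes, against 27.9 between those samples. By the same measure the third non-β-cell sample at 4 weeks stood at 42 and 50.7, against 12.6. The first non-β-cell sample at 8 weeks stood at 26.3 and 37.3, against 10. Ptprc, which encodes CD45, did not exceed 0.789 CPM in any sample. Of 17 leukocyte markers, 9 were at 0 in every β-cell sample at 4 weeks and 4 at 8 weeks, against 7 and 4 in non-β-cells. Only 3 of the 17 passed the filter on low counts, and 1 of these, Cd68, rose in both fractions. It went from 48.8 ± 1.31 to 69.6 ± 5.12 CPM in β-cells (adjusted p = 0.0136). In non-β-cells it went from 9.15 ± 1.54 to 16.5 ± 3.40 CPM (adjusted p = 0.0106). The summed level of 9 α-cell markers was 5900 to 9790 CPM in 4-week β-cells, 1850 to 2890 in 8-week β-cells, and 107000 to 137000 in non-β-cells. In non-β-cells, all 9 endothelial markers and all 10 mesenchymal markers rose between the ages, where 11.6% of all genes did. In these bulk samples fewer cells of a type and less RNA per cell cannot be told apart.

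Between 4 and 8 weeks in β-cells, 3 of the 7 members passed the threshold, where 17.9% of all genes tested did. Slc2a2 rose, as 8.59% of all genes did, and Cd81 and Rbp4 fell, as 9.35% did, while Ucn3, Syt4, Npy and Dlk1 did not pass. In non-β-cells 0 of 7 passed with limma-voom, where 16.4% of all genes did (11.6% up and 4.8% down). Slc2a2 and Syt4 had an unadjusted p under 0.05 there, and edgeR called 1 member and DESeq2 called 2. The median log2 change over the 7 members was 0.05 for β-cells (0.02 over all genes tested) and 0.12 for non-β-cells (0.01 over all genes tested).

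**Figure D1:**
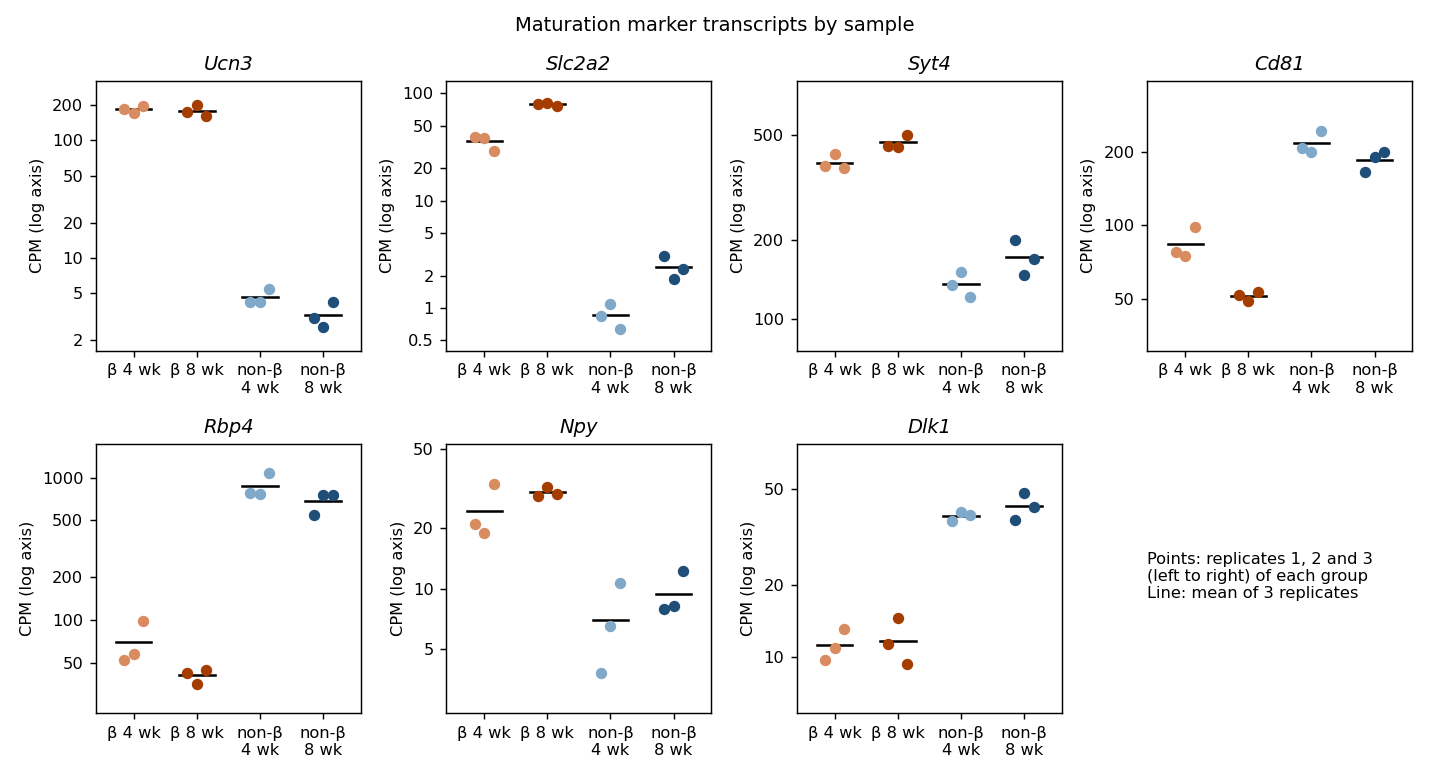
CPM of the 7 members in each of the 12 samples on log axes, with points for replicates and a line for the mean of 3. Slc2a2 stands higher at 8 weeks in both fractions, Cd81 and Rbp4 stand lower at 8 weeks in β-cells, and Ucn3 lies at the same height at both ages in β-cells (183 and 178 CPM).

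At 4 weeks all 7 members differed between the fractions, where 48.5% of all genes did, and at 8 weeks all 7 again differed, where 49.2% of all genes did. Ucn3, Slc2a2, Syt4 and Npy were higher in β-cells at both ages, as were 24.9% of genes tested at 4 weeks and 23.6% at 8 weeks. Cd81, Rbp4 and Dlk1 were higher in non-β-cells at both ages, as were 23.7% and 25.6% of genes. No member's β-cell samples overlapped its non-β-cell samples at either age. Corrected for exonic length, Ucn3 and Syt4 had the highest levels of the 7 in β-cells at 8 weeks, at 120 ± 13.1 and 121 ± 7.23 CPM per kilobase, and Dlk1 had the lowest at 2.07 ± 0.468. In non-β-cells at 8 weeks the highest was Rbp4, at 511 ± 87.9 CPM per kilobase, and the lowest was Slc2a2, at 0.418 ± 0.102.

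**Figure D2:**
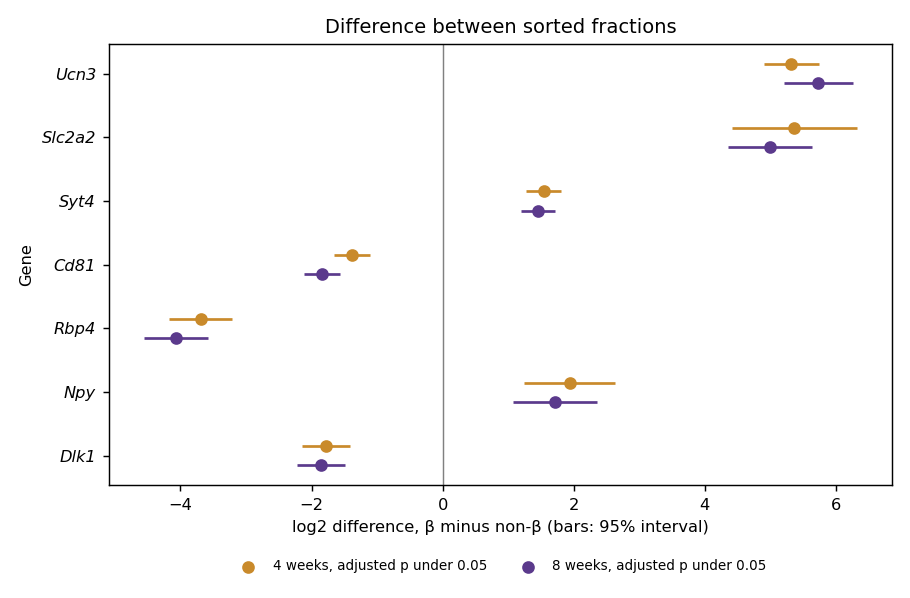
Log2 difference between β-cells and non-β-cells for each member at 4 and at 8 weeks, with 95% confidence intervals, positive values being higher in β-cells. Ucn3 and Slc2a2 lie near 5 or above at both ages, and Rbp4 lies lowest at -3.69 and -4.06.

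Promoters of 3 members are shown because Ucn3 and Slc2a2 had the largest excess in β-cells and Rbp4 the largest excess in non-β-cells. Each line gives the 250 bases before the RefSeq transcription start in GRCm38.p6, read 5′ to 3′ on the gene's strand. The windows lie at chr13:3945350-3945599 on the minus strand for Ucn3, chr3:28697653-28697902 on the plus strand for Slc2a2, and chr19:38124812-38125061 on the minus strand for the second of 2 Rbp4 starts, which is shown for its motif match. Capitals mark a match to one of 4 motifs searched on both strands, which were the MAFA core site TGCTGA, the homeodomain core TAATTA, the E-box CAGATG bound by NEUROD1-type factors, and the TATA box TATAAA.
Ucn3: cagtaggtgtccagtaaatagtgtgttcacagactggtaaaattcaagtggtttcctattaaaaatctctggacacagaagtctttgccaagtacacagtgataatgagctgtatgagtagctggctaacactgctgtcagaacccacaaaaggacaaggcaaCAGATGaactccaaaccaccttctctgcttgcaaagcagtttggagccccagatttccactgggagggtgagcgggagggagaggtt
Slc2a2: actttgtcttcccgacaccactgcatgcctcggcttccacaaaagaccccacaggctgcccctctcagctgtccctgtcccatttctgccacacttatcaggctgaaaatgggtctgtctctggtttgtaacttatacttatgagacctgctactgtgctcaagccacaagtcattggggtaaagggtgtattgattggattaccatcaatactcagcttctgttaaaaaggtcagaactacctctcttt
Rbp4: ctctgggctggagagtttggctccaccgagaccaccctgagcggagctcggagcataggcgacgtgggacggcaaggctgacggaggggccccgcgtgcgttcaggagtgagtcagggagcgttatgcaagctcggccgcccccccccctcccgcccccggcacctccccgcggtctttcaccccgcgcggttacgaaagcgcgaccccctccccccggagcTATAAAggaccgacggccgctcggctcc

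The Ucn3 window held one CAGATG, 87 bases before the start, a motif found in 14.4% of 32851 RefSeq windows of this length. The Slc2a2 window held none of the 4 motifs. The Rbp4 window held one TATAAA, 28 bases before the start, as 12.4% of windows did, and TGCTGA and TAATTA, found in 16.1% and 4.84% of windows, were in none of the 3. The GC content was 46.4% for Ucn3 and 47.2% for Slc2a2, below the median of 52.4% over all windows, and 70.8% for Rbp4. The Rbp4 window held 28 CG pairs, against 1 for Ucn3, 2 for Slc2a2 and a median of 6. The other annotated Rbp4 start, farther upstream, differed from the one shown, with a GC content of 40.8%, 5 CG pairs and none of the 4 motifs.

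Slc2a2 encodes GLUT2, the low-affinity glucose transporter through which rodent β-cells take up glucose in proportion to its level in blood. The gene (ENSMUSG00000027690, GRCm38) spans chr3:28697903-28731359 on the plus strand. In β-cells its CPM was 39.6, 38.6 and 28.9 in the 3 samples at 4 weeks and 80.0, 81.5 and 76.1 at 8 weeks. Every sample at 8 weeks stood above every sample at 4 weeks, and the third sample at 4 weeks was the lowest. The mean rose from 35.7 ± 5.95 to 79.2 ± 2.80, a log2 change of 1.16 (SE 0.12, adjusted p = 3.92e-05). Leaving out each of the 12 samples in turn gave 1.02 to 1.22.

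In non-β-cells Slc2a2 was near the lower end of detection. Its CPM was 0.842, 1.08 and 0.641 at 4 weeks and 3.03, 1.87 and 2.31 at 8 weeks, from 13 to 70 counts a sample. These groups did not overlap either, and the log2 change was 1.54 (SE 0.52, adjusted p = 0.0627). It passed with edgeR (1.52, adjusted p = 0.00107), with DESeq2 (1.54, adjusted p = 1.69e-06) and with limma-voom when the third β-cell sample at 4 weeks was left out (1.54, adjusted p = 0.0232). The change in β-cells differed from that in non-β-cells by -0.37 on the log2 scale (adjusted p = 0.771). The non-β-cell level was 2.39% ± 0.421 (SE) of the β-cell level at 4 weeks and 3.04% ± 0.432 at 8 weeks. For Ins2 (insulin) the same shares were 1.72% ± 0.414 and 2.45% ± 0.149. The part of β-cell RNA in the non-β-cell values of Slc2a2 was not tested.

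From highest to lowest, Slc2a2 ran from 8-week to 4-week β-cells and then from 8-week to 4-week non-β-cells, and no neighbours in this order overlapped. Of 10174 genes compared, those whose pattern over the 12 samples was closest were Mafa, Car15 and Ins1, with root mean square differences in centred log2 CPM of 0.44, 0.463 and 0.509. Of 10 other sugar transporter genes tested, 2 rose in β-cells, 1 fell and 7 did not pass, where 17.9% of all genes were called. Slc2a1, which encodes the widely expressed GLUT1, was at 126 ± 4.64 CPM in 4-week and 182 ± 8.08 in 8-week β-cells (log2 change 0.53, SE 0.13, adjusted p = 0.0145). Slc2a13, a proton-coupled myo-inositol transporter, rose by 0.84 (adjusted p = 0.0286), but was called in 7 of 12 fits that each left out 1 sample and not with edgeR (adjusted p = 0.0803). Slc2a6 fell by 1.19 (adjusted p = 0.00449). Per kilobase the Slc2a2 level in β-cells was 6.20 ± 1.03 CPM at 4 weeks and 13.8 ± 0.486 at 8 weeks.

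Ucn3 encodes urocortin 3, a peptide that β-cells release together with insulin and that acts on CRHR2 receptors, through which it promotes somatostatin release from neighbouring δ-cells. The gene (ENSMUSG00000044988) lies at chr13:3940688-3945349 on the minus strand in 2 exons. Its CPM in β-cells was 185, 171 and 194 at 4 weeks and 173, 199 and 162 at 8 weeks. The ages overlapped, and both the highest and the lowest of the 6 values came from 8 weeks. The log2 change was -0.05 (SE 0.11, adjusted p = 0.804), with a 95% confidence interval of -0.27 to 0.18. That interval lies below the change of Slc2a2 in the same samples, for which it was 0.90 to 1.42.

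In non-β-cells Ucn3 measured 4.21, 4.21 and 5.47 CPM at 4 weeks and 3.07, 2.61 and 4.21 at 8 weeks. The ages met at 4.21, and the log2 change was -0.46 (SE 0.29, adjusted p = 0.342). The difference between fractions was 5.32 at 4 weeks (adjusted p = 4.55e-10) and 5.73 at 8 weeks (adjusted p = 1.47e-09), the largest of the 7 members at 8 weeks. The non-β-cell level was 2.53% ± 0.248 (SE) of the β-cell level at 4 weeks and 1.85% ± 0.291 at 8 weeks. The change with age differed between fractions by 0.41 (adjusted p = 0.528).

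In order, Ucn3 was highest in the overlapping 4-week and 8-week β-cells, followed by 4-week and 8-week non-β-cells, which met at 1 value. The closest patterns were those of Sytl4, Prss53 and Gm17767, at root mean square differences of 0.406, 0.41 and 0.446. Of 7 genes of the urocortin system on the list, 3 passed the filter on low counts. Transcripts of the related peptides Crh, Ucn and Ucn2 were at 0 in every group. Crhr1, which encodes the receptor CRHR1, was at 2.91 ± 0.876 CPM in 4-week and 1.73 ± 0.353 in 8-week β-cells, and at 0 in all non-β-cell samples at 4 weeks. Crhr2 had the opposite placement, at 0.470 ± 0.120 and 0.617 ± 0.286 CPM in β-cells and 6.56 ± 1.74 and 7.92 ± 1.12 in non-β-cells, with a log2 difference between fractions of -3.67 at 4 weeks (adjusted p = 0.000235). Sst, which encodes somatostatin, was at 494 ± 245 and 806 ± 43.5 CPM in β-cells (adjusted p = 0.0512). Its rise among non-β-cells was 0.88 on the log2 scale (adjusted p = 0.0466), a call that held in 3 of 12 fits that each left out 1 sample and not with edgeR (adjusted p = 0.0592).

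Syt4 encodes synaptotagmin 4, a vesicle protein without the calcium sensing of synaptotagmins 1 and 7, which raises the calcium needed for insulin release in mature β-cells. The gene (ENSMUSG00000024261) lies at chr18:31437808-31447406 on the minus strand in 4 exons. Its CPM in β-cells was 381, 423 and 376 at 4 weeks and 456, 452 and 503 at 8 weeks. The 8-week samples all stood above the 4-week samples, though the difference did not pass the threshold. The log2 change was 0.26 (SE 0.12, adjusted p = 0.167), with a 95% interval of 0 to 0.52. In non-β-cells it was 135, 151 and 121 CPM at 4 weeks and 199, 147 and 169 at 8 weeks. These groups overlapped, and the log2 change was 0.33 (adjusted p = 0.082).

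Syt4 had the smallest excess of the 4 members that were higher in β-cells, at both ages, at 1.54 (adjusted p = 4.82e-07) and 1.46 (adjusted p = 6.66e-07) on the log2 scale. Non-β-cells held 34.5% of the β-cell level at 4 weeks and 36.5% at 8 weeks. The same shares for Ins2 were 1.72% and 2.45%. The part of β-cell RNA in the non-β-cell values of Syt4 was not tested. The closest patterns were Eaf1, Pard3 and Atp2c1, at 0.146, 0.151 and 0.165. Of 13 other synaptotagmin genes tested, 4 rose in β-cells, 2 fell and 7 did not pass (17.9% of all genes passed). Syt2 rose, from 3.71 ± 0.290 CPM to 8.46 ± 1.32 (log2 change 1.17, adjusted p = 0.00331). Syt7, a high-affinity calcium sensor of insulin granule release, was at 490 ± 97.7 and 652 ± 29.7 CPM (log2 change 0.43, adjusted p = 0.0446), but passed in 4 of 12 fits that each left out 1 sample. Syt17 fell by 1.06 (adjusted p = 0.0427) and Syt11 by 0.37 (adjusted p = 0.0218). Syt5 and Syt11 changed with age differently in the 2 fractions, by 1.15 (adjusted p = 0.0182) and -0.76 (adjusted p = 0.00821).

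Npy encodes neuropeptide Y, a peptide that restrains insulin release and that is found in immature and dedifferentiated β-cells. The gene (ENSMUSG00000029819) lies at chr6:49822710-49829507 on the plus strand in 4 exons. Its CPM in β-cells was 21.1, 18.9 and 33.2 at 4 weeks and 29.2, 32.2 and 29.6 at 8 weeks. The third sample at 4 weeks was the highest of the 6, and the remaining ones at 4 weeks were the lowest. The log2 change was 0.36 (SE 0.23, adjusted p = 0.309). Without both 4-week samples numbered 3 it was 0.61 (adjusted p = 0.0115).

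In non-β-cells Npy measured 3.79, 6.51 and 10.6 CPM at 4 weeks and 7.88, 8.14 and 12.2 at 8 weeks. The ages overlapped through the third sample at 4 weeks, and the log2 change was 0.59 (adjusted p = 0.34), or 0.95 (adjusted p = 0.0305) without both 4-week samples numbered 3. Npy was higher in β-cells by 1.94 at 4 weeks (adjusted p = 0.000331) and 1.71 at 8 weeks (adjusted p = 0.000394). The closest patterns were Pdxp, Nudt7 and Cmbl, at 0.242, 0.288 and 0.299. Among 4 tested genes of the neuropeptide Y family and its processing, Ppy (pancreatic polypeptide) fell in β-cells, from 227 ± 122 to 63.6 ± 5.61 CPM (log2 change -1.72, adjusted p = 0.000831). Pyy (peptide YY) was at 144 ± 60.7 and 134 ± 6.63 CPM, and Dpp4, which encodes a protease that trims neuropeptide Y, was at 79.3 ± 8.78 and 91.2 ± 6.84. Both family peptides were lower in β-cells at 4 weeks, with a log2 difference from non-β-cells of -4.20 for Pyy (adjusted p = 1.84e-08) and -4.85 for Ppy (adjusted p = 1.84e-08), opposite in sign to Npy.

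**Figure D3:**
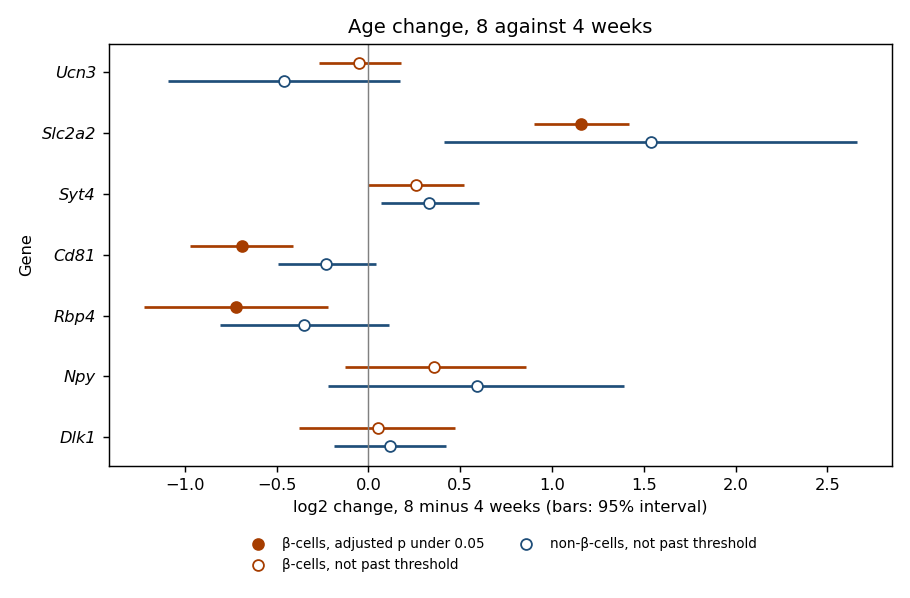
Log2 change from 4 to 8 weeks for each member in each fraction, with 95% confidence intervals and filled points where adjusted p was under 0.05. Slc2a2 lies at 1.16, Cd81 at -0.69 and Rbp4 at -0.72 in β-cells. Each interval of Ucn3, Syt4, Npy and Dlk1 in β-cells spans 0, that of Syt4 only just (0 to 0.52 after rounding).

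Cd81 encodes a tetraspanin of the cell surface that has been used to mark less mature β-cells. The gene (ENSMUSG00000037706) lies at chr7:143052739-143067934 on the plus strand in 8 exons, and an antisense gene, R74862, overlaps it at 1.36 to 9.59 CPM. In β-cells Cd81 was at 77.6, 75.2 and 98.7 CPM at 4 weeks and 52.1, 49.1 and 53.4 at 8 weeks. Every 8-week sample stood below every 4-week sample. The log2 change was -0.69 (SE 0.13, adjusted p = 0.0029). In non-β-cells it was at 207, 200 and 244 CPM at 4 weeks and 165, 191 and 200 at 8 weeks. There too the ages did not overlap, though the nearest values both round to 200. In this fraction the log2 change was -0.23 (adjusted p = 0.254).

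The change of Cd81 with age differed between the fractions by -0.46 on the log2 scale (SE 0.18, adjusted p = 0.176). With limma-voom 0 of the 7 members passed this test of the difference, where 5.13% of all genes did. Cd81 had the one unadjusted p under 0.05 among them (0.0225), edgeR and DESeq2 each called 0, and limma-voom with sample quality weights called Cd81 (-0.46, adjusted p = 0.0123). Non-β-cells held more Cd81 at both ages, with a log2 difference of β-cells from non-β-cells of -1.38 at 4 weeks and -1.84 at 8 weeks (adjusted p = 1.77e-06 and 1.31e-07). The β-cell level was 38.6% ± 4.20 (SE) of the non-β-cell level at 4 weeks and 27.8% ± 1.72 at 8 weeks. The closest patterns were Pygb, Kdelr3 and Dusp26, at 0.181, 0.185 and 0.219.

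Of 24 other tetraspanins and partner genes tested, 5 rose in β-cells and 19 did not pass, where 8.59% of all genes rose and 9.35% fell. Ifitm2, an interferon-inducible membrane protein, rose, from 21.9 ± 3.25 CPM to 36.1 ± 1.76 (log2 change 0.74, adjusted p = 0.0213). Ptgfrn, which encodes a direct partner of CD81, rose by 0.73 (adjusted p = 0.0287). Tspan6 rose by 1.04 (adjusted p = 0.0484) and Tspan15 by 0.42 (adjusted p = 0.0279). These 4 calls held in 3 to 8 of the 12 fits that each left out 1 sample. Igsf8, the gene of another direct partner, was at 82.8 ± 12.7 and 64.5 ± 4.40 CPM (log2 change -0.35, adjusted p = 0.0858).

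Rbp4 encodes retinol-binding protein 4, the plasma carrier of vitamin A, which has been reported to mark a subset of β-cells. The gene (ENSMUSG00000024990) lies at chr19:38116629-38125281 on the minus strand in 6 exons. In β-cells it measured 52.3, 57.7 and 98.3 CPM at 4 weeks and 42.6, 35.2 and 44.6 at 8 weeks. The ages did not overlap, but the third sample at 4 weeks lay far above the rest. The log2 change was -0.72 (SE 0.23, adjusted p = 0.0476). Without that sample it was -0.44 (adjusted p = 0.16), and the call was also lost without any one of the β-cell samples at 8 weeks (adjusted p = 0.0831 to 0.16) and without any of 3 non-β-cell samples (adjusted p = 0.0516 to 0.0605), so that it held in 5 of 12 such fits. In non-β-cells Rbp4 was at 784, 763 and 1080 CPM at 4 weeks and 549, 758 and 750 at 8 weeks. The 8-week values all lay below those at 4 weeks, by a small margin, and the log2 change was -0.35 (adjusted p = 0.319).

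Rbp4 had the largest excess in non-β-cells of the 7 members, with a log2 difference of β-cells from non-β-cells of -3.69 at 4 weeks and -4.06 at 8 weeks (adjusted p = 3.6e-08 and 1.64e-08). The β-cell level was 7.93% ± 1.89 (SE) of the non-β-cell level at 4 weeks and 5.95% ± 0.725 at 8 weeks. Gcg stood at 6.36% ± 1.04 and 1.62% ± 0.261 by the same measure. Ttr, which encodes transthyretin, the plasma partner of RBP4, stood at 9.36% ± 2.03 and 4.54% ± 0.471. The closest patterns to Rbp4 were Ttr, Tspan8 and Eef1a2, at 0.213, 0.232 and 0.239.

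α-cell transcripts fell along with Rbp4 and Cd81 in the β-cell samples. Gcg was at 5400, 6270 and 9040 CPM at 4 weeks and 2440, 1410 and 2110 at 8 weeks. Of 9 α-cell markers 7 fell in β-cells, 1 rose and 1 did not pass, where 9.35% of all genes fell and 8.59% rose. Taking Gcg in each β-cell sample as a share of its non-β-cell mean, and subtracting that share of the non-β-cell level of each gene, left 66.8, 62.6 and 80.6 CPM of Cd81 at 4 weeks and 48.4, 46.9 and 50.2 at 8 weeks. The 8-week values of Cd81 remained the lower ones, at a log2 ratio of means of -0.53. For Rbp4 the same subtraction left 8.78, 7.17 and 25.4 CPM at 4 weeks and 29.0, 27.3 and 32.9 at 8 weeks. The direction of Rbp4 turned, to a log2 ratio of 1.11. This subtraction was chosen after the values were seen and carries no test, and it treats all Gcg in β-cell samples as RNA of non-β-cells. Whether its outcome for Rbp4 holds with a marker other than Gcg was not tested. The part of non-β-cell RNA in the falls of Cd81 and Rbp4 was not tested either. Sst in β-cells stood at 9.35% and 8.34% of its non-β-cell level at 4 and 8 weeks. These shares exceed those of Rbp4 itself, at 7.93% and 5.95%, and a subtraction by Sst was not run.

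**Figure D4:**
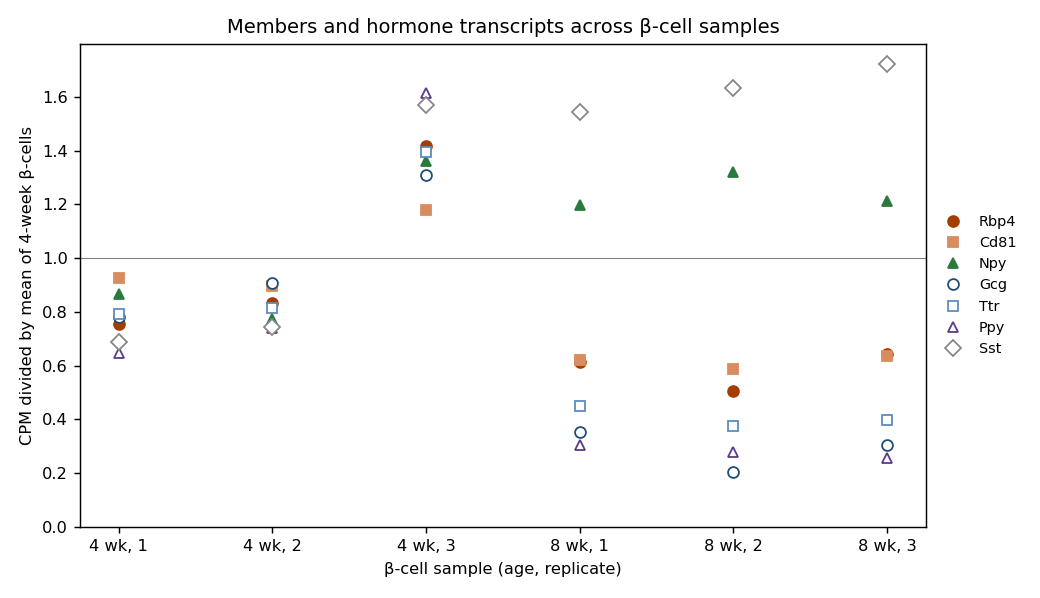
CPM of Rbp4, Cd81 and Npy and of the hormone or carrier transcripts Gcg, Ttr, Ppy and Sst in each β-cell sample, divided by the gene's mean over the β-cell samples at 4 weeks. In the third 4-week sample all 7 transcripts lie above 1, and at 8 weeks Rbp4, Cd81, Gcg, Ttr and Ppy lie below 1 while Npy and Sst lie above.

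Among 9 tested genes of retinoid transport and signalling, 1 rose in β-cells, 3 fell and 5 did not pass (17.9% of all genes passed). Ttr fell, from 240 ± 82.2 CPM to 97.8 ± 9.23 (log2 change -1.25, adjusted p = 0.000975). Stra6, which encodes the membrane receptor for RBP4, fell from 3.61 ± 1.21 to 0.566 ± 0.318 CPM (log2 change -2.78, SE 0.67, adjusted p = 0.013), though edgeR did not call it (adjusted p = 0.087). Unlike Ttr, Stra6 was near 0 in non-β-cells, at 0.383 ± 0.568 and 0.421 ± 0.347 CPM. Its relative Stra6l rose, from 0.933 ± 0.252 CPM to 4.47 ± 0.747 (log2 change 2.29, adjusted p = 0.0199). Rara, the gene of a retinoic acid receptor, fell by 0.64 (adjusted p = 0.029). The calls of Stra6l and Rara each held in 8 of 12 fits that each left out 1 sample.

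Dlk1 encodes a non-canonical Notch ligand of the cell surface, is expressed from the paternal allele and is found in fetal endocrine cells. The gene (ENSMUSG00000040856) lies at chr12:109452823-109463336 on the plus strand, with 10 annotated transcripts. Its CPM in β-cells was 9.72, 10.9 and 13.1 at 4 weeks and 11.3, 14.5 and 9.31 at 8 weeks. The ages overlapped fully, and the log2 change was 0.05 (95% interval -0.38 to 0.47, adjusted p = 0.9). In non-β-cells it was at 36.7, 40.0 and 39.2 CPM at 4 weeks and 37.3, 48.3 and 42.0 at 8 weeks. These also overlapped, with a log2 change of 0.12 (adjusted p = 0.643). Dlk1 was higher in non-β-cells, with a log2 difference of β-cells from non-β-cells of -1.78 at 4 weeks (adjusted p = 3.26e-06) and -1.85 at 8 weeks (adjusted p = 1.5e-06). The closest patterns were Actb, Pcsk1n and Pamr1, at 0.168, 0.177 and 0.178.

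Dlk1 shares an imprinted cluster with long noncoding RNAs made from the maternal allele, and these did change. Meg3 rose in β-cells from 113 ± 28.7 to 328 ± 27.7 CPM (log2 change 1.57, SE 0.29, adjusted p = 0.00277). Rian rose, from 86.1 ± 4.44 CPM to 131 ± 4.08 (log2 change 0.61, adjusted p = 0.014), and Mirg from 5.71 ± 2.39 to 12.4 ± 2.67 (log2 change 1.14, adjusted p = 0.0302). In non-β-cells Meg3 was at 505 ± 189 and 592 ± 208 CPM (adjusted p = 0.667). The difference between the age changes of the fractions did not pass for Meg3 (1.34, adjusted p = 0.0867). Nor did it for Rian (0.35, adjusted p = 0.414) or Mirg (1.02, adjusted p = 0.211). Of 13 tested genes of this cluster and the Notch pathway, 4 rose in β-cells and 9 did not pass (17.9% of all genes passed). The fourth was Notch1, from 20.5 ± 8.28 to 40.7 ± 1.69 CPM (log2 change 1.08, adjusted p = 0.0195). The calls of Notch1 and Mirg each held in 8 of 12 fits that each left out 1 sample.

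Other genes of β-cell maturity were read beside the 7 members. Of 20 tested genes of mature β-cells, 11 rose in β-cells, 2 fell and 7 did not pass, with a median log2 change of 0.44. Over all genes tested 8.59% rose and 9.35% fell, with a median of 0.02. Ins1 rose by 1.51 (SE 0.23, adjusted p = 0.000681), and Mafa, a transcription factor of mature β-cells, by 1.16 (SE 0.10, adjusted p = 1.16e-05). G6pc2, which encodes a glucose-6-phosphatase that opposes glucokinase, rose by 1.12 (adjusted p = 5.44e-06). Ppp1r1a, a protein phosphatase 1 inhibitor, fell, from 232 ± 48.7 CPM to 95.6 ± 10.3 (log2 change -1.26, adjusted p = 0.000101), and Wnt4 fell by 0.62 (adjusted p = 0.0184). In non-β-cells 5 of the 20 rose and 3 fell, where 11.6% and 4.8% of all genes did. Ins1 rose there by 1.89 (adjusted p = 5.14e-05) and G6pc2 by 0.66 (adjusted p = 0.000668), and Mafa did not pass (0.53, adjusted p = 0.0782). The difference between age changes did not pass for Ins1 (-0.37, adjusted p = 0.579), G6pc2 (0.46, adjusted p = 0.0854) or Mafa (0.64, adjusted p = 0.122). It passed for 3 of the 20, all positive, where 5.13% of all genes passed. Slc2a2 and Mafa had the same log2 change, and the interval of Ucn3 lay below both.

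Of 17 tested genes linked to immature β-cells or silenced in mature ones, 2 rose in β-cells, 3 fell and 12 did not pass. Their median log2 change was 0.66, and 17.9% of all genes were called. That median was the value of Aldh1a3, which was not called (SE 0.76, adjusted p = 0.594), at 0.544 and 0.881 CPM. Several others, such as Neurog3, Sox9 and Pdgfra, were also under 1 CPM in β-cells at both ages and were not called. The median is therefore not set against that of the mature genes. Slc16a1, a lactate and pyruvate carrier gene that mature β-cells silence, fell, from 14 ± 1.83 CPM to 5.58 ± 1.13 (log2 change -1.36, adjusted p = 0.000729). Mki67, a marker of dividing cells, fell by 1.61 (adjusted p = 0.0256). Ldha, the gene of lactate dehydrogenase A, which mature β-cells also silence, rose from 3.63 ± 2.33 to 82.6 ± 13.6 CPM (log2 change 4.77, SE 0.55, adjusted p = 8.36e-05). Hk2 rose, from 0.240 ± 0.233 CPM to 2.65 ± 0.906 (log2 change 3.73, adjusted p = 0.0204). Both were higher in non-β-cells, where they rose as well, by 2.94 and 2.80 (adjusted p = 1.95e-05 and 8.8e-05). The summed level of 8 acinar markers in β-cell samples was 88.9 to 181 CPM at 4 weeks and 403 to 869 at 8 weeks, that of 10 mesenchymal markers was 4.40 to 16.2 and 26.9 to 55.4, and their part in the rise of Ldha and Hk2 was not tested. The count of 5 fell to 2 without either the first or the second β-cell sample at 4 weeks and to 3 without any one β-cell sample at 8 weeks.

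**Figure D5:**
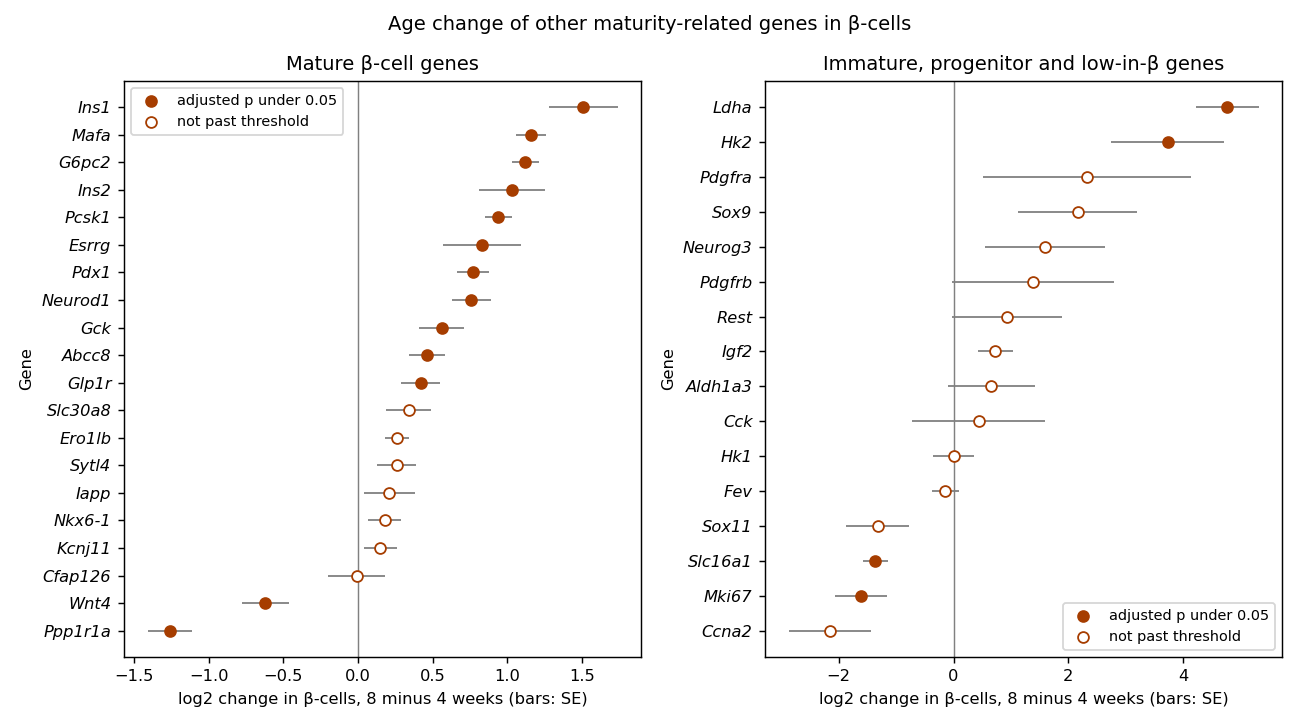
Log2 change from 4 to 8 weeks in β-cells for tested genes of 2 lists read beside the members (all but 1), with mature β-cell genes in the left panel, genes linked to immature β-cells in the right panel, bars for SE and filled points where adjusted p was under 0.05. Mature β-cell genes lie mostly above 0 (median 0.44). The other genes, several of them under 1 CPM in β-cells, lie on both sides of 0 (median 0.66 over all 17 tested), with Ldha highest at 4.77.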

How the data were processed

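Libraries came from total RNA of sorted islet cells, with a kit that keeps strand. The authors used fastp to trim single-end reads and filter them by quality (Phred at least 15), kallisto with the mouse transcripts of Ensembl release 98, and tximport to sum transcripts to genes. Tool versions and the strand setting of kallisto are not given in the sources used here. The deposited values are estimated counts per gene, and 14.0% to 19.3% of the values in a sample were not whole. They were rounded here. Reads shared by overlapping or similar transcripts are split by estimation: 10 of the 12 Dlk1 values were not whole, and Slc2a2, Syt4 and Cd81 each overlap an antisense gene.

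Symbols and coordinates came from GENCODE release 21 (GRCm38), which named 52002 of 52962 identifiers, and promoters from RefSeq (GRCm38.p6), where 6 of the 7 members were matched. Genes over 1 CPM in at least 3 samples were fitted with limma-voom (limma 3.58.1, R 4.3.3, TMM scaling) in one model of 4 groups. The tests gave the age change in each fraction, the fraction difference at each age and the difference between age changes. edgeR 4.0.16 and DESeq2 1.42.0 were alternatives, beside other scalings, filters, sample quality weights, a replicate block and leaving out samples. Scripts were tested on simulated data. From each list, up to 4 genes a direction with adjusted p under 0.05 and no overlap were named, with genes given as checks; other list genes named, such as Igsf8 and Pyy, were chosen after their values were seen. Closest patterns were taken among genes with a mean log2 CPM of at least 3. The members and lists were chosen with earlier results of these data known. p-values measure the spread between pooled samples. One gene of the list linked to immature β-cells is counted in the totals but is not reported here by itself.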

Additional observations from a re-analysis of the deposited data

How the results depend on the processing

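All 7 differences between fractions kept their direction and call at both ages in every alternative run. In β-cells the age comparison called 3 members in most alternatives and 2 without a filter on low counts or with only the 2 groups compared, where Rbp4 was lost (adjusted p = 0.151 and 0.0722), and 2 to 3 when single samples were left out. Rbp4 also lost its call without both 4-week samples numbered 3 (-0.45, adjusted p = 0.0739), and turned to 1.11 after subtraction of the non-β-cell level times the Gcg share, which gave -0.53 for Cd81 and 0.32 for Dlk1. Sample quality weights called 5 members in β-cells, adding Syt4 (0.24, adjusted p = 0.0261) and Npy (0.56, adjusted p = 0.00402), but also called 5382 of all genes there, against 2799. In non-β-cells, where limma-voom called 0 members, edgeR called 1, DESeq2 called 2, quality weights called 1, and leaving out both 4-week samples numbered 3 gave 1. Leaving out single samples gave 0 to 1 there: Slc2a2 was called without the third β-cell sample at 4 weeks (adjusted p = 0.0232), and Syt4 without the second non-β-cell sample at 8 weeks (0.45, adjusted p = 0.0346). For the difference between age changes, quality weights called 1 member, Cd81 (-0.46, adjusted p = 0.0123), and leaving out single samples called 0. The 5 called genes of the immature list became 9 with DESeq2, 8 with quality weights, and 2 to 6 when single samples were left out. The 13 called mature genes became 9 to 15 when single samples were left out, and 16 with quality weights or without both 4-week samples numbered 3. Leaving out single samples, Syt17 held its call in β-cells in 5 of 12 fits, Mki67 in 7 and Hk2 in 9, and Hk2 had an adjusted p of 0.0564 without both 4-week samples numbered 3. With edgeR, Syt7 (adjusted p = 0.0571) and Tspan6 (adjusted p = 0.141) were not called in β-cells. The cause of these shifts was not tested.

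The labels do not say whether samples of equal number came from the same mice, and they were not treated as pairs. The correlation of deviations between samples of equal number was 0.08 to 0.31 across fractions at 4 weeks and 0.01 to 0.05 at 8 weeks. Across ages it was -0.01 to 0.03 in β-cells and 0 to 0.12 in non-β-cells. In this order its means were 0.17, 0.03, 0.01 and 0.07. Between samples of unequal number the means were -0.08, -0.01, -0.01 and -0.04. A sample correlated best with its own number in 4, 5, 3 and 4 of 6 cases. With the replicate block, 1 member was called in non-β-cells (Slc2a2, 1.53, adjusted p = 0.0479) and 1 for the difference between age changes (Cd81, -0.47, adjusted p = 0.0199). The block changed no other call of a member. Over all genes it raised the calls between fractions from 7570 to 9158 at 4 weeks and from 7679 to 9127 at 8 weeks. Calls for the difference between age changes went from 800 to 2080. The depth of 13 to 70 counts limits Slc2a2 in non-β-cells.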
